A study of Arabidopsis thaliana with 6 samples.

Results

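Peaks of the bHLH transcription factor PIF4 around the centromeres of Arabidopsis thaliana were described here, in 1 window of 4 Mb per chromosome. The windows ran from 13 to 17 Mb on chromosome 1, 1.6 to 5.6 Mb on chromosome 2, 11.7 to 15.7 Mb on chromosome 3, 2 to 6 Mb on chromosome 4 and 9.7 to 13.7 Mb on chromosome 5 of TAIR10. A peak was a member when its middle lay in a window, whatever its strength. Of 19201 deposited peaks, 1263 were members: 909 of 12177 in list 1, 257 of 4093 in list 2 and 97 of 2931 in list 3. The other 17938 peaks lay on the chromosome arms.

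The peaks came from chromatin immunoprecipitation and sequencing of whole seedlings, 3 days old, that had been exposed to white light for 3 h at 21 °C to induce germination and were then kept in darkness. Seedlings of a line overexpressing Myc-tagged PIF4 and seedlings of the wild type, which carries no tag, were both precipitated with an anti-Myc antibody, with 3 libraries per group that each pooled several ChIP assays. Wild-type reads served as the control when MACS called each list, and have no list here, so every result below compares parts of the genome within the PIF4-Myc lists. The overexpressed protein was profiled, not PIF4 at its native level. The list headers gave from 9385807 to 12766185 treatment tags, and named 1 control (w1s) for lists 1 and 2 and another (w3s) for list 3. The sample labels instead tie a wild-type sample of its own to each list, and which of these holds for list 2 was not settled. By the headers lists 1 and 2 share a control and are not independent of each other, and lists 2 and 3 often share exact peak edges. No difference below could reach an exact p under 0.25, the smallest that 3 lists allow in a two-sided sign-flip permutation test.

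Pericentromeric DNA is the gene-poor, repeat-rich chromatin that flanks the centromeric satellite arrays. In Arabidopsis it is rich in transposable elements, is densely methylated and stays condensed in most nuclei. PIF4 binds short E-box elements and is best known from promoters of growth genes, which lie mostly on the euchromatic arms. The annotation bore out the gene-poor label of the windows. They held 1325 protein-coding genes, or 66.3 genes per Mb, against 263 per Mb on the arms. Protein-coding genes covered 13% of the DNA in the windows and 62.4% on the arms, while annotated pseudogenes covered 35.0% and 3.50%. The annotation used carries no class of transposable elements as such.

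Peaks were sparse in the windows of all 3 lists. List 1 had 45.5 peaks per Mb in the windows and 114 per Mb on the arms, a ratio of 0.400. List 2 had 12.9 and 38.7 peaks per Mb, a ratio of 0.332. List 3 had 4.85 and 28.6 peaks per Mb, a ratio of 0.170. The ratio was thus below 1 in 3 of 3 lists and lowest in list 3. The mean log2 ratio was -1.82 ± 0.65 (SD, n = 3 lists; exact sign-flip permutation p = 0.25, two-sided). The ratio of list 1 depended on how many of its peaks were used: with each list held to its 2931 best-scoring peaks it was 0.902, against 0.290 in list 2 and 0.170 in list 3. The members made up 7.47% of list 1 (exact Clopper-Pearson 95% interval 7.004 to 7.95), 6.28% of list 2 (5.56 to 7.07) and 3.31% of list 3 (2.69 to 4.02). These intervals, like all intervals on shares below, cover counting error only.

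The lower density was seen on every chromosome. In list 1 the windows held from 146 peaks on chromosome 1 to 216 on chromosome 4, and the ratio to the arms of the same chromosome ran from 0.318 to 0.481. In list 2 the windows held 47 to 54 peaks and the ratio ran from 0.294 to 0.355. In list 3 they held only 13 to 23 peaks and the ratio ran from 0.115, on chromosome 3, to 0.207, on chromosome 5. The windows and the arms did not overlap in any list: the densest window of list 3, for example, had 5.75 peaks per Mb and its sparsest pair of arms 26.9.

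**Figure D1:**
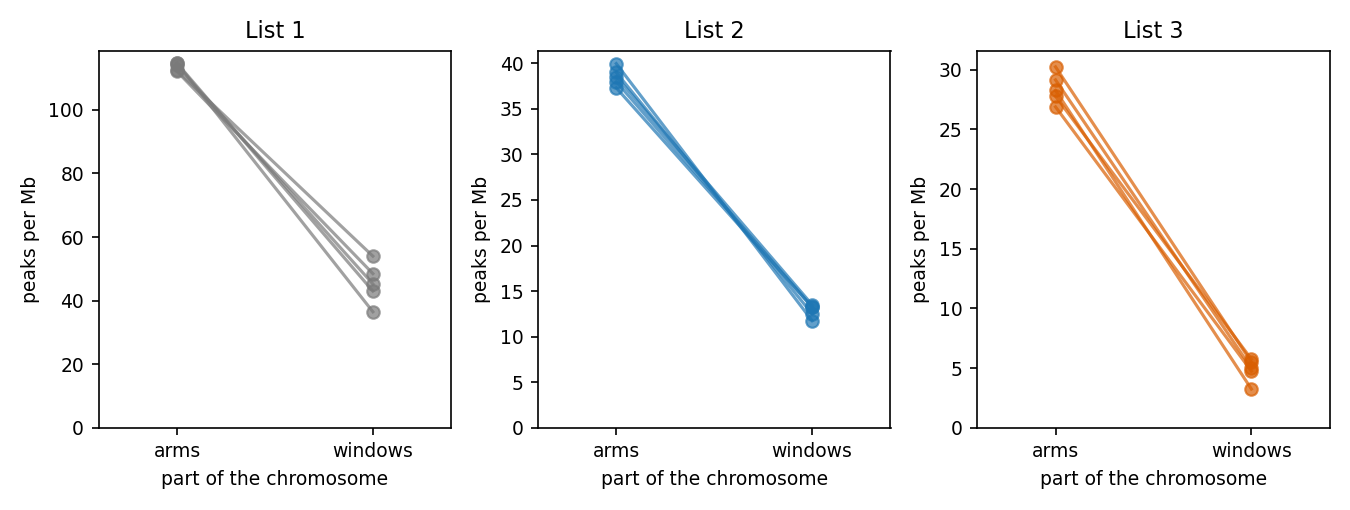
Peaks per Mb (vertical axis) on the arms and in the window of each chromosome, with 1 line per chromosome and 1 panel per peak list; the vertical scales differ. All 5 lines go down in each panel, to between 36.5 and 54 peaks per Mb in list 1, 11.8 and 13.5 in list 2 and 3.25 and 5.75 in list 3.

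Within the windows the members lay toward the edges. The inner 1 Mb on either side of the window centre held 369, 98 and 21 peaks of lists 1, 2 and 3, and the outer 1 Mb held 540, 159 and 76. In list 3 the outer part thus held 78.4% of the members, against 59.4% in list 1 and 61.9% in list 2. The outer part also held more protein-coding genes, 933 against 392. Within 0.5 Mb of the centre list 3 had 1.2 peaks per Mb and list 1 had 40.8. The window edge itself marked no step. The 0.25 Mb strips just inside the edges held 166, 54 and 28 peaks of lists 1, 2 and 3, and the strips just outside held 153, 46 and 24.

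**Figure D2:**
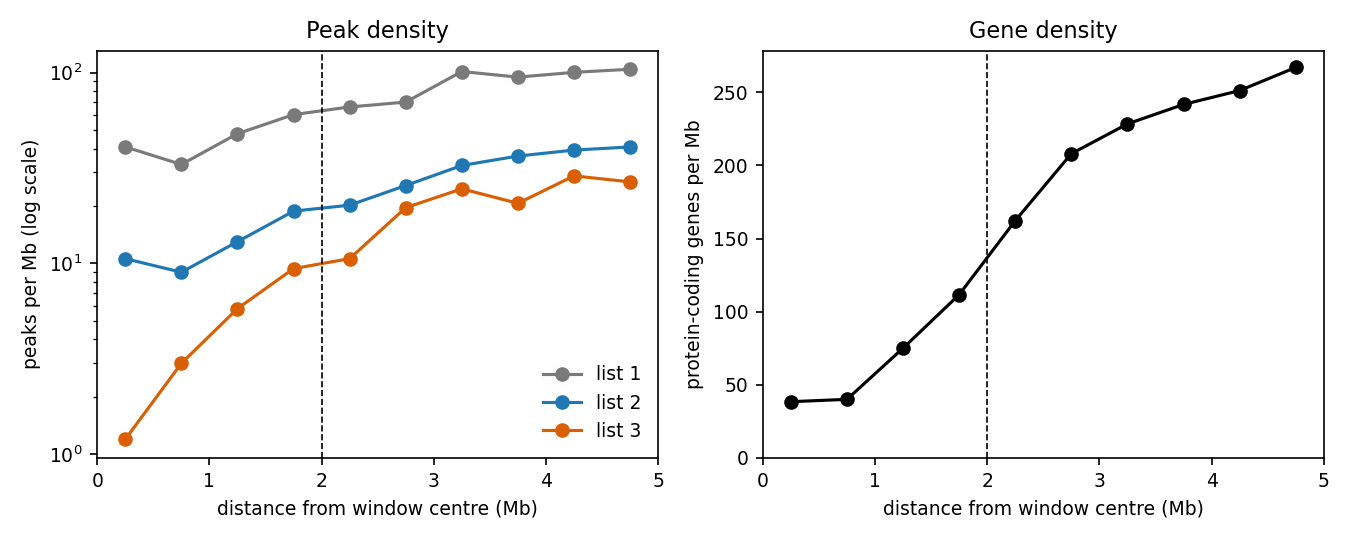
Left, peaks per Mb (log scale) of each list against the distance from the window centre in bins of 0.5 Mb over both sides of the 5 chromosomes; right, protein-coding genes per Mb in the same bins; the dashed line marks the window edge. From the innermost to the outermost bin shown, list 1 goes from 40.8 to 104 peaks per Mb, list 2 from 10.6 to 40.8, list 3 from 1.2 to 26.8 and gene density from 38.4 to 267 genes per Mb.

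Counted per gene, the windows were not poorer in peaks in every list. List 1 had 68.6 peaks per 100 protein-coding genes in the windows and 43.1 on the arms, and list 2 had 19.4 and 14.7. List 3 went the other way, with 7.32 and 10.9. The mean log2 ratio was 0.17 ± 0.65 (SD, n = 3 lists; exact sign-flip permutation p = 0.75, two-sided). Its direction turned with windows of 6 Mb (-0.087), with every annotated gene in place of protein-coding genes (-1.35) and without list 1 (-0.083).

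Summits of the members were often far from protein-coding genes. Over 2 kb from any such gene lay 513 of 909 summits in list 1 (56.4%, interval 53.1 to 59.7), 119 of 257 in list 2 (46.3%, 40.1 to 52.6) and 29 of 97 in list 3 (29.9%, 21.0 to 40.0). On the arms these distal shares were 4.14%, 9.78% and 9.81%. The gene-near share, of summits inside a gene or at most 2 kb away, differed by -52.3, -36.5 and -20.1 percentage points (windows minus arms) in lists 1, 2 and 3. The mean difference was -36.3 ± 16.1 points (SD, n = 3 lists; exact sign-flip permutation p = 0.25, two-sided). With every annotated gene counted in place of protein-coding genes it was -8.42 points, from -8.20, -10.9 and -6.20 in lists 1, 2 and 3. The median distance from a member's summit to the nearest protein-coding gene was 3320 bp in list 1, 1499 bp in list 2 and 387 bp in list 3.

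The members were nevertheless closer to genes than the DNA around them. Of the window DNA, 70.1% lay over 2 kb from a protein-coding gene and 29.9% in or near one. Members of lists 1, 2 and 3 had 43.6%, 53.7% and 70.1% of their summits in or near a gene. On the arms, where 92.5% of the DNA was gene-near, the same shares were 95.9%, 90.2% and 90.2%, which differ little from that of the DNA.

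The gap between windows and arms was smaller when densities were set per Mb of DNA in or within 2 kb of protein-coding genes. There, list 1 had 66.3 peaks per Mb in the windows and 118 on the arms, list 2 had 23.1 and 37.8, and list 3 had 11.4 and 27.9. The ratios of windows to arms were 0.563, 0.612 and 0.408, with a mean log2 of -0.94 ± 0.31 (SD, n = 3 lists; exact sign-flip permutation p = 0.25, two-sided). With equal numbers of peaks the list 1 ratio was 1.03, so its direction turned. The gap did not shrink when every annotated gene was counted. The gene-near ratios were then 0.405, 0.325 and 0.175, against 0.400, 0.332 and 0.170 for all peaks per Mb. In distal DNA the lists diverged. List 1 had 36.6 distal peaks per Mb of distal DNA in the windows and 62.7 on the arms, a ratio of 0.583. List 2 had 8.48 and 50.3, a ratio of 0.169, and list 3 had 2.07 and 37.3, a ratio of 0.0554. The mean log2 ratio for distal DNA was -2.51 ± 1.70 (SD, n = 3 lists; exact sign-flip permutation p = 0.25, two-sided). It was -3.37 without list 1, -1.67 without list 3 and -1.60 with a gene distance of 5 kb, where the list 1 ratio was 1.07. How aligned reads from repeated sequence were counted is not given in the sources used here, and its part in these densities was not tested.

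**Figure D3:**
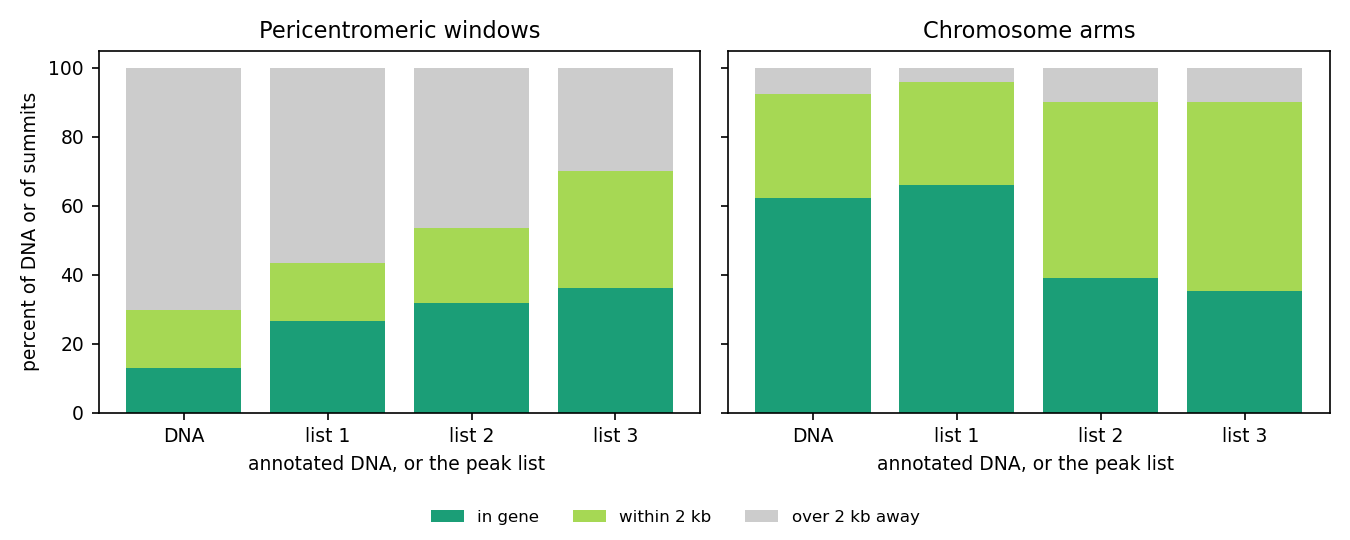
Percent of the DNA and of the summits of each list (vertical axis) that lay inside a protein-coding gene, within 2 kb of one, or over 2 kb away, in the windows (left) and on the arms (right). In the windows the distal part is 70.1% of the DNA and 56.4%, 46.3% and 29.9% of the summits of lists 1, 2 and 3.

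Inside genes the lists split. List 1 had 26.5% of its members' summits inside protein-coding genes, against 65.99% on the arms. List 2 had 31.9% and 39.0%, and list 3 had 36.1% and 35.4%. The mean difference was -15.3 ± 21.3 points (SD, n = 3 lists; exact sign-flip permutation p = 0.5, two-sided), and it came to 1.97 points with every annotated gene counted and to -3.21 points without list 1 and -23.3 points without list 3. Per Mb of genic DNA, list 2 had 31.5 in-gene peaks in the windows and 24.2 on the arms, list 1 had 92.7 and 120, and list 3 had 13.5 and 16.2. DNA within 2 kb beside genes held fewer peaks per Mb in the windows of each list, with 46.0 against 113 in list 1, 16.6 against 65.9 in list 2 and 9.79 against 52.1 in list 3.

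Annotated pseudogenes took a larger share of the members' summits in list 1 than in lists 2 and 3. In list 1, 279 of 909 fell in a pseudogene (30.7%, interval 27.7 to 33.8), 35 of 257 in list 2 (13.6%, 9.67 to 18.4) and 7 of 97 in list 3 (7.22%, 2.95 to 14.3). Pseudogenes that overlap no protein-coding gene covered 34.9% of the window DNA. Their density of summits in the windows was 40.0 per Mb in list 1, 5.02 in list 2 and 1.00 in list 3. DNA with no annotated gene had 35.6, 12.3 and 4.79 summits per Mb in the same order. In lists 2 and 3, but not in list 1, window pseudogenes thus held fewer summits per Mb than unannotated DNA. For lists 2 and 3 this was not particular to the windows. On the arms, pseudogenes had 57.2, 8.59 and 4.44 summits per Mb in lists 1, 2 and 3. Unannotated DNA there had 105, 65.8 and 51.9, more in each list, list 1 included.

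A smaller share of genes was reached in the windows than over the genome. A list 1 summit lay in or within 2 kb of 437 of the 1325 genes in the windows (33.0%, interval 30.5 to 35.6), against 53.2% of all 27444 protein-coding genes. For list 2 the count was 158 genes (11.9%, 10.2 to 13.8), against 19.0% of all genes. For list 3 it was 82 genes (6.19%, 4.95 to 7.62), against 14.2%. A region shared by at least 2 lists reached 112 window genes (8.45%, 7.01 to 10.1), against 15.2%, and a region in all 3 lists reached 15 (1.13%, 0.635 to 1.86), against 4.38%. Genes close together can share 1 summit, so these counts are not independent.

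Deposited peak values in the windows also differed by list. The fold enrichment is the authors' value for a single peak and is read here only within a list. It is meant as the tags at the summit over the local expectation, which is in doubt for list 1. In list 1 the members had a median fold of 1.29, and arm peaks 0.97. In list 2 the medians were 2.26 and 2.47, and in list 3 they were 4.11 and 4.17. The ratio of medians was 1.33, 0.915 and 0.986, and the mean log2 ratio was 0.09 ± 0.29 (SD, n = 3 lists; exact sign-flip permutation p = 1, two-sided). Without list 1 the mean log2 ratio was -0.075. The higher median of list 1 was seen on 5 of 5 chromosomes, with ratios from 1.24 to 1.46. Of the members of list 1, 27.1% had a fold below 1, against 53.1% of its arm peaks. A fold below 1 is at odds with a call of enrichment, so the meaning of list 1 folds is uncertain. The list 1 header also gives 112342435 filtered tags against 12766185 in total, and a link between these was not tested. Members were narrower than arm peaks in list 2, with median widths of 620 and 831 bp, and in list 3, with 659 and 860 bp, while list 1 had 335 and 339 bp. Median false discovery rates, as deposited by the authors, were 2.21% for list 1 members, 72.1% for list 2 members and 76.5% for list 3 members. Arm peaks had 3.98%, 63.4% and 64.7%, so high rates marked lists 2 and 3 as a whole. At a rate of 1% or less stood 166 peaks of list 1, 85 of list 2 and 2 of list 3. Of these, 68, 3 and 0 were members (41.0%, 3.53% and 0%), against 7.47%, 6.28% and 3.31% of all peaks. The regions named below were ranked by fold, and no list 3 member among them passed 1%.

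By fold or peak score, the windows held many of the leading peaks of list 1 and few of those of lists 2 and 3. Of the 100 peaks with the highest fold, 40 were members in list 1 and 1 each in lists 2 and 3. Of the 100 with the highest peak score, −10 times log10 of the p-value, 55, 3 and 1 were members. A high score in list 1 was not always a high fold. Several of its members tied at a score of 3100, among them peaks at the ribosomal RNA genes of chromosome 3. Another was chr3:13536356-13541581, with a fold of 0.63. The highest fold of all list 1 peaks, 5.3, belonged to a member at chr5:12141628-12141904. It lay 53102 bp from the nearest protein-coding gene and was met by no other list. Its neighbours by rank among distal members stood at chr4:4219005-4219214, with a fold of 4.2, and at chr1:15167891-15168119, with a fold of 4.03, again in list 1 alone. In list 2 the highest fold of a member was 5.66, against 14.5 on the arms, and in list 3 it was 10.5 against 21.8.

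**Figure D4:**
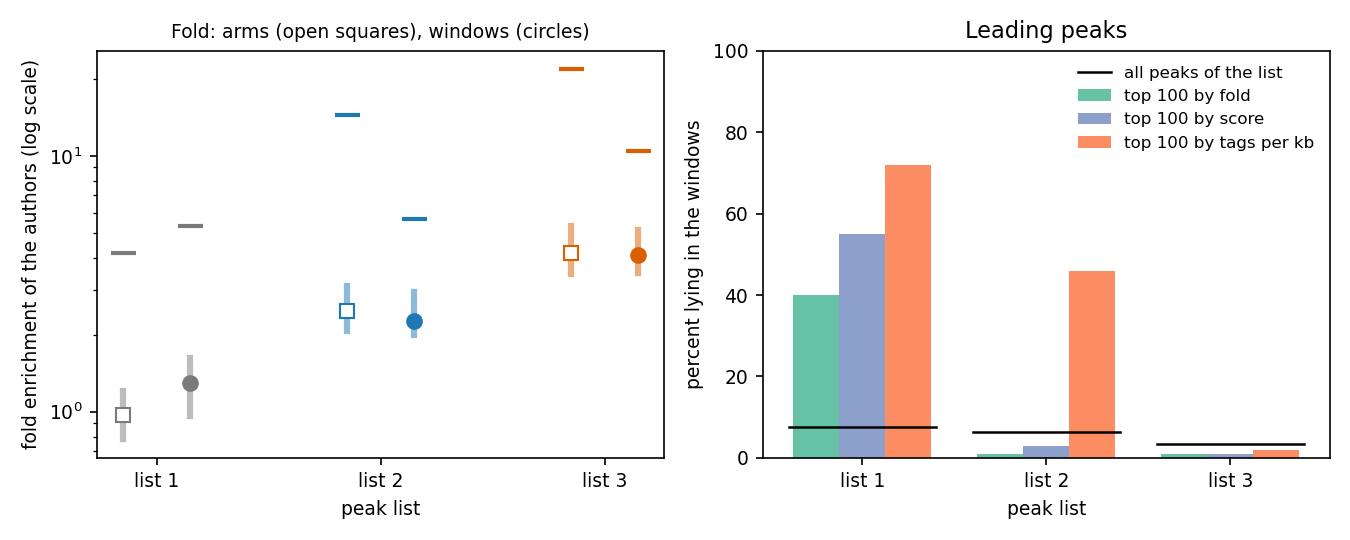
Left, the authors' fold enrichment (log scale) per list, with medians as symbols, quartiles as thick lines and the highest peak as a dash, for arms (open squares) and windows (circles); right, the percent of each list's 100 leading peaks that lay in the windows, by fold, peak score and tags per kb, with the black line giving the percent over all peaks. In list 1, 40%, 55% and 72% of the leading peaks are members, in list 2 1%, 3% and 46%, and in list 3 1%, 1% and 2%.

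A few members of lists 1 and 2 had very high tag densities. Median tags per kb of peak were 237 in the windows and 234 on the arms in list 1, 177 and 195 in list 2, and 155 and 171 in list 3. The highest values were 11054 among members and 5827 on the arms in list 1, 3580 and 2127 in list 2, and 319 and 484 in list 3. Of the 20 peaks with the most tags per kb, 15 were members in list 1, 18 in list 2 and 0 in list 3. List 1 tag values are multiples of 5 and are read here as a score. The widest list 2 member, chr3:13536190-13541710, held 19764 tags at a fold of 1.49, and its counterpart in list 1, chr3:13536356-13541581, had a tag value of 20370 at a fold of 0.63. Both summits lay in the pseudogene AT3G33002. The pseudogene AT2G07080 held another such pair, chr2:2937959-2938952 with a list 1 fold of 1.11 and chr2:2937872-2939127 with a list 2 fold of 1.85. List 3 had no peak at either place.

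The ribosomal RNA genes on chromosome 3 were another such place. The windows hold 2 annotated rRNA genes, AT3G41768 and AT3G41979. They were singled out after the values were seen. Within 5 kb of them list 1 had 12 peaks between 14194323 and 14204867, list 2 had 10 between 14195518 and 14202933, and list 3 had 0. Tag densities there ran from 473 to 11054 per kb in list 1 and from 1573 to 3139 per kb in list 2, against list medians of 234 and 194. Of these peaks, 10 in each list were among that list's 20 densest. Their folds ran from 0.48 to 2.57 in list 1 and from 1.4 to 2.62 in list 2. In list 2, 4 of the peaks held exactly 376 tags each, all at a fold of 1.99 and a width of 239 bp.

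Part of the chromosome 2 window, from 3.2 to 3.7 Mb, is known to carry a copy of mitochondrial DNA in the reference. List 1 had 25 peaks there with a median fold of 0.77, list 2 had 6 with a median fold of 1.74, and list 3 had 0. The widest list 1 member of all, 7659 bp at chr2:3386906-3394564, lay in this stretch, with a fold of 0.43. Leaving the stretch out turned the direction of no mean over the lists.

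Regions shared between lists were fewer in the windows and had a different make-up. Peaks that overlapped by at least 1 bp were merged into 1078 regions in the windows and 13937 on the arms. At least 2 lists had a peak in 168 window regions (15.6%, interval 13.5 to 17.9) and in 2985 arm regions (21.4%, 20.7 to 22.1). All 3 lists had a peak in 14 window regions (1.30%, 0.712 to 2.17) and in 771 arm regions (5.53%, 5.16 to 5.93). Of the shared window regions, 81 came from lists 1 and 2 alone (48.2%, 40.5 to 56.0), against 19.2% of the shared arm regions (17.8 to 20.7). The rRNA genes of chromosome 3 held 10 of the list 2 peaks in these window regions. Lists 2 and 3 alone gave 71 shared window regions (42.3%), against 52.1% on the arms. The shared share differed by -5.83 percentage points (windows minus arms), a single value with no test. The difference was -22.4 points without list 1 and -0.97 points without list 3.

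**Figure D5:**
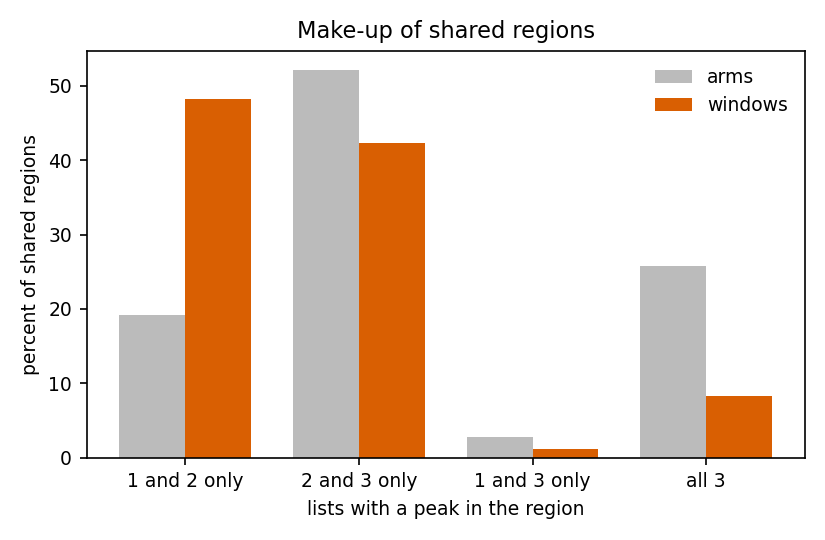
Percent of the shared regions (vertical axis) by the lists that have a peak in them (horizontal axis), for the 2985 shared regions of the arms and the 168 of the windows. Regions of lists 1 and 2 alone make up 19.2% on the arms and 48.2% in the windows, and regions of all 3 lists 25.8% and 8.33%.

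Seen from each list, a member of list 3 was met by a list 2 peak in 86 of 97 cases (88.7%), and an arm peak of list 3 in 82.8%. A member of list 2 was met by list 3 in 85 of 257 cases (33.1%), against 61.2% on the arms, and by list 1 in 95 cases (37.0%), against 35.4%. Exact starts differed between windows and arms for lists 1 and 2, and hardly for lists 2 and 3. Of 97 overlapping pairs of list 1 and list 2 peaks in the windows, 21 had identical starts (21.6%), as had 32 of 1520 pairs on the arms (2.11%). The 21 pairs had median tag densities of 2505 per kb in list 1 and 1541 per kb in list 2, and 15 of them were distal. Many of the 21 lay at 1 place, the rRNA genes of chromosome 3. There, most of the 10 list 2 peaks that met a list 1 peak had the same start. The share and the medians without that place were not computed. The other 76 overlapping pairs in the windows had medians of 309 and 219 per kb. Between lists 2 and 3, identical starts were found in 51.2% of 86 window pairs and 50.5% of 2368 arm pairs. Their folds had a Spearman coefficient of 0.875 over 85 window regions, and those of lists 1 and 2 had 0.089 over 95, given as descriptions across regions whose lists share edges or, by the headers, a control. No exact match of starts was found between lists 1 and 3, over 16 pairs in the windows.

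Each region found in all 3 lists holds a list 3 peak, so its place is set beside that of all list 3 members. Of the 14 regions, 5 had their summit in a protein-coding gene, 6 within 2 kb and 3 farther away, and 11 lay in the outer part of a window. Of all list 3 members, 70.1% were in or near a gene and 78.4% lay in the outer part. The list 1 fold was below 1 in 6 of the 14, against 27.1% of all list 1 members. With 14 regions, these counts were not read as differing from those shares. The region with the highest median fold stood at chr3:15356866-15358186, 1684 bp from AT3G43430, with folds of 1.67, 4.42 and 7.46 in lists 1, 2 and 3. The next, at chr1:16934674-16935675, lay 775 bp from AT1G44830 and had folds of 1.11, 3.96 and 5.82.

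Of the 10 leading regions, 4 lay nearest to a gene with a symbol. EXO (EXORDIUM, AT4G08950), an apoplastic protein gene that responds to brassinosteroid and promotes cell expansion, had a region at chr4:5738516-5739339, with folds of 0.64, 3.54 and 4.76 and a summit 1350 bp away. A region of lists 2 and 3 alone stood farther out, at chr4:5736258-5737156, with folds of 4.06 and 6 and a summit 3499 bp from EXO. AGP10 (AT4G09030), which encodes an arabinogalactan protein of the cell surface, had folds of 1, 3.3 and 4.54 at chr4:5792792-5793791. SAH7 (AT4G08685) had folds of 0.91, 2.59 and 3.7, with the summit in the gene, at chr4:5550062-5550732. The 3 regions of all lists near EXO, AGP10 and SAH7 lie toward 1 edge of the chromosome 4 window, and their list 1 folds were at or below 1.

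ALY1 (AT5G27610), a homologue of the Drosophila gene always early, had folds of 1.27, 2.53 and 4.66 with its summit in the gene, at chr5:9766148-9767109. AT4G06744 had a region close to the centre of the chromosome 4 window, at chr4:4070004-4071889, with folds of 0.58, 2.84 and 5.07 and a summit 203 bp from the gene. The others had no protein-coding gene within 2 kb. A region at chr3:11801791-11802737 had folds of 2.81, 3.63 and 5.01, the highest list 1 fold among the 10 leading regions. On chromosome 5, folds were 1.09, 3.16 and 6.17 at chr5:13612128-13613074, and on chromosome 2 they were 1.33, 3.12 and 3.43 at chr2:4142274-4142893.

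Lists 2 and 3 alone met in 71 regions. Their median folds were 2.63 in list 2 and 4.11 in list 3, against 2.98 and 4.60 in the 14 regions of all 3 lists. The 71 regions ranged from 1.5 to 5.66 in list 2 and from 2.17 to 10.5 in list 3, and the 14 regions from 1.86 to 4.42 and from 3.02 to 7.46. The summits of the 71 fell in a gene in 22, within 2 kb in 24 and farther away in 25, and 56 lay in the outer part of a window. Over all members, the distal share was 46.3% in list 2 and 29.9% in list 3. The share in the outer part was 61.9% and 78.4%. The highest median fold stood 1787 bp from AT4G08370, at chr4:5299191-5300517, with folds of 4.42 and 10.5. AT5G28300, or GT2L, a member of the plant-specific trihelix family of transcription factors, had folds of 5.66 and 8.93 at chr5:10296737-10297612, with the summit 1800 bp away.

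A growth-regulating factor and a partner of that family were both among them. GRF6 (AT2G06200), one of the growth-regulating factors that act on cell number in leaves, had folds of 4.33 and 6.98 at chr2:2424816-2425441, 1036 bp from the gene. AN3 (AT5G28640), a transcriptional coactivator that works with growth-regulating factors, had folds of 3.32 and 6.06 with summits in the gene. Its peaks both began at 10649429 on chromosome 5, at deposited false discovery rates of 24.5% and 28.2%. List 1 had no peak in either region. Metabolic genes included ACC1 (AT1G36160), the acetyl-CoA carboxylase that supplies malonyl-CoA for fatty acid elongation, with folds of 3.42 and 7.78 inside the gene at chr1:13532944-13534576. SUS4 (AT3G43190), a sucrose synthase, had 3.53 and 6.23 at chr3:15184236-15184774, at deposited false discovery rates of 51.6% and 45.9%. CUE1 (AT5G33320), the phosphoenolpyruvate translocator of plastids, had folds of 4.02 and 6.29 with the summit just past the 2 kb limit, 2064 bp away, at chr5:12586387-12586897.

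The 2 leading distal members of list 2 and of list 3 were the same places. Deposited false discovery rates of the list 3 peaks there were 20.4% on chromosome 4 and 15.8% on chromosome 5. At chr4:5717579-5718230 the folds were 5.07 in list 2 and 8.39 in list 3, with the summit 4410 bp from AT4G08910. At chr5:10127946-10128674 they were 4.73 and 8.21, with the summit 7131 bp from AT5G28150. On chromosome 1 they were 4.26 and 6.87 at chr1:13464154-13464743, where the summit lay 2243 bp from AT1G36070, and 3.56 and 6.35 at chr1:14721690-14722197, more than 11 kb from a protein-coding gene. A further distal member of list 2, at chr2:4843696-4844485, had a fold of 4.36, held 1057 tags, had its summit in the pseudogene AT2G12020 and was shared with list 1 and not with list 3.

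A list of well-known genes of the windows is set here beside all window genes. Of 25 genes listed for their position and function, and not for their peaks, all lay in a window. A list 1 summit was in or within 2 kb of 11, a list 2 summit of 4 and a list 3 summit of 3. Over all window genes these shares were 33.0%, 11.9% and 6.19%, and over all genes 53.2%, 19.0% and 14.2%. A shared region lay at 3 of the 25, against 8.45% of window genes and 15.2% of all genes. A region in all 3 lists lay at 0, against 1.13% and 4.38%, and 10 had no peak in any list. With so few genes, these counts were not read as differing from the genome.

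Among 6 genes of light signalling and photosynthesis, 0 had a shared region, which so few genes cannot set apart from the 8.45% of window genes. CRY1 (AT4G08920), the blue light receptor that restrains stem growth, had list 1 peaks alone, of which the stronger had a fold of 1.48 in the gene at chr4:5723991-5724340. CH1 (AT1G44446), which makes chlorophyll b, had a fold of 2.12 in list 1. PSBQ-2 had 3.63 in list 2, at a deposited false discovery rate of 68.9%. The antenna genes LHCB2.1 and LHCB2.2 and the Calvin cycle gene GAPB had no peak. Of 3 hormone synthesis genes, BR6OX2 (AT3G30180), the cytochrome P450 of the last step to brassinolide, had folds of 1.81 and 1.79 inside the gene in lists 1 and 2. The false discovery rates of these peaks were 2.04% and 70.7%. OPR3 of jasmonate synthesis and ACS11 of ethylene synthesis had no peak.

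In the growth and development group, AN3 was the 1 gene of 5 with a shared region. The meristem homeobox gene KNAT1 had a list 1 peak with a fold of 2.71 within 2 kb, at chr4:5147484-5147886, and CYCA1;1 and VIP1 had list 1 folds of 1.08 and 1.01. BZO2H3 had no peak. In the stress and metabolism group, SUS4 was the 1 of 7 with a shared region, SOS2, APR1 and ANNAT1 had list 1 folds of 0.89, 1.05 and 0.95, and NIA2, MEKK1 and BIP1 had no peak. Among 4 genes of protein turnover and the ribosome, UBQ10 and UBQ11 had list 1 folds of 0.92 and 0.54, and DDB1A had no peak. The ribosomal protein gene AT1G43170 had a list 3 fold of 4.24, at a deposited false discovery rate of 94.7%.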

How the data were processed

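The files analysed were 3 MACS peak lists, 1 per PIF4-Myc library. Per the file headers, each library was called against a wild-type control. MACS 1.4.0rc2 made lists 1 and 3, MACS 1.4.1 made list 2, and the p-value cutoff (1e-05) and band width (300) were common to all. The submitters' processing notes name TAIR10 as the build, and as tools MACS 1.4.1, Bowtie 0.12.7 and CASAVA 1.8.0. Tags per peak were deposited as read counts in lists 2 and 3. In list 1 the deposited tags are all multiples of 5 and were treated as a score, and its header gives more filtered than total tags, so its depth is uncertain. The peak score, −10 times log10 of the p-value, the fold enrichment, a ratio, and the false discovery rate, a percent, were deposited by the authors. No depth per position was given, so folds carry no counting interval.

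Peaks were placed by their middle and summits by start plus offset. Gene positions and types were those RefSeq gives for TAIR10.1, taken to have the same nuclear coordinates as TAIR10. It carries no strand, and no peak sequences were used here. Chromosome extent was the last annotated gene end or peak end. Members, lists and tests were chosen with earlier results of these data known. Each windows-to-arms value was computed per list and its mean tested with an exact two-sided sign-flip permutation test over 3 lists (log2 scale for ratios). The labels do not show that lists come from separate cultures, and the spread between lists may be partly technical. Named regions were the 10 of all 3 lists and the 10 of lists 2 and 3 alone with the highest median fold, the 3 leading distal peaks per list, and 25 genes fixed from their position. SUS4 and AN3 are among the 25, and peaks named for tags, width or rRNA genes were chosen after their values were seen. Alternatives were summit placement, windows of 2 and 6 Mb, arms without the next 1 Mb, the better-ranked 50% of peaks, equal numbers of peaks, gene distances of 1 and 5 kb, every annotated gene, a reciprocal overlap of 50%, and leaving out each chromosome, each list, or 3.2 to 3.7 Mb of chromosome 2. The overall and gene-near density ratios were checked on simulated lists of randomly placed peaks with known ratios. Distal density, peaks per gene, in-gene share, fold and sharing were not checked in this way. Python 3.11.15, NumPy 2.4.6, pandas 2.3.3 and SciPy 1.17.1 were used.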

Additional observations from a re-analysis of the deposited data

How the results depend on the processing

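Of 132 values recomputed under alternatives for the 8 comparisons, 122 kept their direction and, for the shared share, stayed within its counting interval. The 122 include placement by summit, which gave the same values as placement by middle and so adds nothing. The means over lists of the density ratio, the gene-near share and both densities per Mb of like DNA kept their direction under all alternatives run. Single lists did not: the list 1 ratio was 1.03 for gene-near density with equal numbers of peaks and 1.07 for distal density at 5 kb. The mean log2 density ratio ran from -2.37 to -1.45. The gene-near difference ran from -55.7 percentage points with windows of 2 Mb to -8.42 with every annotated gene counted. Leaving out each list gave mean log2 ratios from -2.08 to -1.46 for density and from -3.37 to -1.67 for distal density. For peaks per protein-coding gene, the mean log2 ratio was -0.087 with windows of 6 Mb, -1.35 with every annotated gene, and from -0.083 to 0.54 with each list left out. The in-gene difference was 1.97 points with every annotated gene. The median fold ratio (log2) ran from -0.075 to 0.20 with each list left out. The shared share difference was -11.3 points with the better-ranked 50%, -19.4 with equal numbers of peaks, -2.94 with a reciprocal overlap of 50%, and from -22.4 to -0.97 with each list left out. The cause was not tested. No paired analysis was possible because the wild-type libraries have no list of their own and no test compares the groups.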

Other observations

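In bins of 100 kb, of which the windows hold 200, list 1 had no peak in 16, list 2 in 82 and list 3 in 142. The fullest bin of list 1 held 25 peaks, at 3.9 to 4 Mb on chromosome 4, the fullest of list 2 held 9, at 11.7 to 11.8 Mb on chromosome 5, and the fullest of list 3 held 4, at 5.7 to 5.8 Mb on chromosome 4. Distal members had higher median folds than in-gene members in each list, at 1.37 and 1.15 in list 1, 2.38 and 2.13 in list 2, and 4.96 and 3.98 in list 3. The order was the same on the arms, at 1.16 and 0.96, 2.71 and 2.23, and 4.92 and 3.69. Members within 2 kb of a gene had 1.21, 2.49 and 4.08, in list 2 above the distal members.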
